A study of Mus musculus with 32 samples.

Results

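The 3′ splice-site recognition factors described here are genes whose proteins find the branch point, the polypyrimidine tract and the AG at the end of an intron, or act beside those that do. They were taken by gene symbol from a list of 10: U2af2, U2af1l4, Zrsr1, Zrsr2, Sf1, Puf60, Rbm39, U2surp, Sugp1 and Dhx15. Of these, 9 had a row among the 27728 genes of the count table and all 9 passed the filter on low counts; U2af1l4 was not analysed here. U2af1 itself, the gene that the study deleted, mutated or titrated, was not analysed here either, so the genotypes in the labels could not be checked from it.

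RNA was sequenced from 32 libraries of sorted mouse blood progenitors, negative for lineage markers and Sca1 and positive for cKit, in 9 groups. The fetal groups were taken from liver at E14.5. Batch A of the labels held 3 groups of 3 libraries each. The flox control was U2af1(flox/flox) and had no Cre; the heterozygous deletion was U2af1(wt/flox) and the homozygous deletion U2af1(flox/flox), both with Vav1-Cre. Batch B held 4 libraries of embryos with Vav1-Cre and U2af1(wt/S34F), where S34F is an amino acid substitution in the U2AF1 protein that recurs in human myeloid neoplasms. Of the 2 libraries with Vav1-Cre alone, 1 was in batch A and 1 in batch B. Vav1-Cre acts in blood cells from the fetal stage on, so other cells of the liver keep their floxed alleles. The flox control carried no Cre, so the value of the Vav1-Cre library of batch A is given beside the deletion groups.

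The adult groups came from bone marrow. All adult mice carried Mx1-Cre, rTA and the transgene tgU2AF1(WT), through which doxycycline drives wild-type U2AF1. In 3 groups the endogenous gene was U2af1(flox/S34F), with a floxed and an S34F allele. These mice received pIpC, which switches on Mx1-Cre through interferon in blood cells and in other tissues, and chow with doxycycline; 4 libraries came from 1250 ppm, 6 from 2500 ppm and 4 from 10000 ppm. The wild type, with U2af1(wt/wt), was untreated and had 3 libraries. A comparison of a dose group with the wild type therefore holds genotype, pIpC and doxycycline together, and the doses themselves differ in doxycycline alone by the labels. The labels do not say that libraries came from separate animals, so p-values measure the spread between libraries.

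Total counts ran from 26588099 to 71251200 per library. The lowest count behind any value of a factor was 301, for Zrsr1, and the highest was 61839, for Sf1. All 7 progenitor markers were present in all libraries, with Kit at 239 to 776 and Mpo at 7470 to 34100 counts per 1000000 counts (CPM). Ly6a, which encodes Sca1, was not analysed here. Summed over 9 hepatocyte genes, the level was 94.4 to 579 CPM in the flox control, 47.5 to 113 in the heterozygous deletion and 11.9 to 29.2 in the homozygous deletion; Alb, Ttr, Fga and Fgb had no count in the adult libraries. Over 7 macrophage genes it was 95.7 to 101 CPM in the flox control and 38.5 to 60.7 in the homozygous deletion, over 5 B cell genes 58.8 to 120 against 24.4 to 26.6, over 3 late erythroid genes 459 to 647 against 267 to 322, and over 2 neutrophil genes 65.5 to 190 against 318 to 604. Their part in the results below was not tested, other than by a fit with a hepatocyte score as covariate. That score, the mean log2 CPM of the 9 hepatocyte genes, was 2.66 to 5.25 in the flox control. It was 1.51 to 2.98 in the heterozygous and -0.75 to 0.97 in the homozygous deletion. The homozygous deletion thus lay below both other groups, so the fit cannot cleanly part the score from the genotype. In these bulk samples, fewer cells of a type and less RNA per cell cannot be told apart.

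At the end of most introns, SF1 binds the branch point while the U2AF heterodimer binds downstream of it: the large subunit, encoded by U2af2, holds the polypyrimidine tract and the small subunit, encoded by U2af1, reads the AG. The U2 snRNP then takes the place of SF1. Zrsr1 and Zrsr2 encode relatives of the small subunit; ZRSR2 acts mainly on the rare U12-type introns, and U2af1l4 encodes a closer paralog. PUF60 and RBM39 resemble the large subunit and carry, as both U2AF subunits do, a U2AF homology motif (UHM), with which such proteins bind partners; U2SURP (SR140) and SUGP1 work beside the U2 snRNP, and DHX15 is an RNA helicase that G-patch proteins, SUGP1 among them, switch on.

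The pair Zrsr1 and Zrsr2 is shown first, since reads of near-identical genes can be counted for the wrong one. Zrsr1 is a gene of a single exon on chromosome 11 (GRCm38 chr11:22972005-22976496, plus strand) that lies within Commd1, which is on the other strand, and Zrsr2 has 10 merged exons on chromosome X (chrX:163935443-163958661, minus strand). Their coding sequences of 1287 and 1626 bases, read from the GENCODE M21 transcripts, were 80.0% identical over 1282 aligned bases, and the longest identical run was 37 bases. The most alike window of 120 bases is given 5′ to 3′ from coding base 748 to 867 of Zrsr1 and from 787 to 906 of Zrsr2, with capitals at the 9 positions that differ.
Zrsr1: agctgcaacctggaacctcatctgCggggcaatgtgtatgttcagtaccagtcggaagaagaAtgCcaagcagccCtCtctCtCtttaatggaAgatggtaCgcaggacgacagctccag
Zrsr2: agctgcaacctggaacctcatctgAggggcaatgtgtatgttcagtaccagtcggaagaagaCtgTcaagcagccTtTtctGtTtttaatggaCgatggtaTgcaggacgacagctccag
No window of 50 bases in the longest coding transcript of one of them recurred in the other. Of the 50-base windows of Zrsr1, 7.13% were shared with Commd1, whose exons overlap it by 412 bases, and whether the counting used strand is not given in the sources used here. Of the 50-base windows of U2af2 (chr7:5062143-5079938, plus strand, 11 merged exons), 29.9% recurred in Gm5846, Gm7061 or Gm8784, but of the windows of 150 bases only 1.33% did. The counts of Zrsr1 and U2af2 are uncertain to that extent.

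Per kilobase of merged exon, the factors fell into 4 tiers of abundance that were the same in all 32 libraries. CPM per kilobase of merged exon, the scale used to compare genes, put U2af2 (66.2 to 199 over the libraries) and Sf1 (83.4 to 194) in the top places. Puf60 (37.7 to 53.2), Rbm39 (41.1 to 77.0) and Dhx15 (33.4 to 62.8) held places 3 to 5. U2surp (10.1 to 16.3) and Sugp1 (9.55 to 12.5) held places 6 and 7, and Zrsr2 (4.10 to 6.95) and Zrsr1 (2.04 to 5.63) the last places. Both relatives of the small subunit thus stayed below every other factor per length of merged exon in every library. The tiers depend on the length used. Merged exons of U2af2, Sf1, Rbm39 and Dhx15 held 4113, 6211, 6946 and 8496 bases, and their longest coding transcripts 2183, 4353, 2810 and 3010. Tiers by transcript length were not worked out, so the order of the upper tiers holds for merged exons only.

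**Figure D1:**
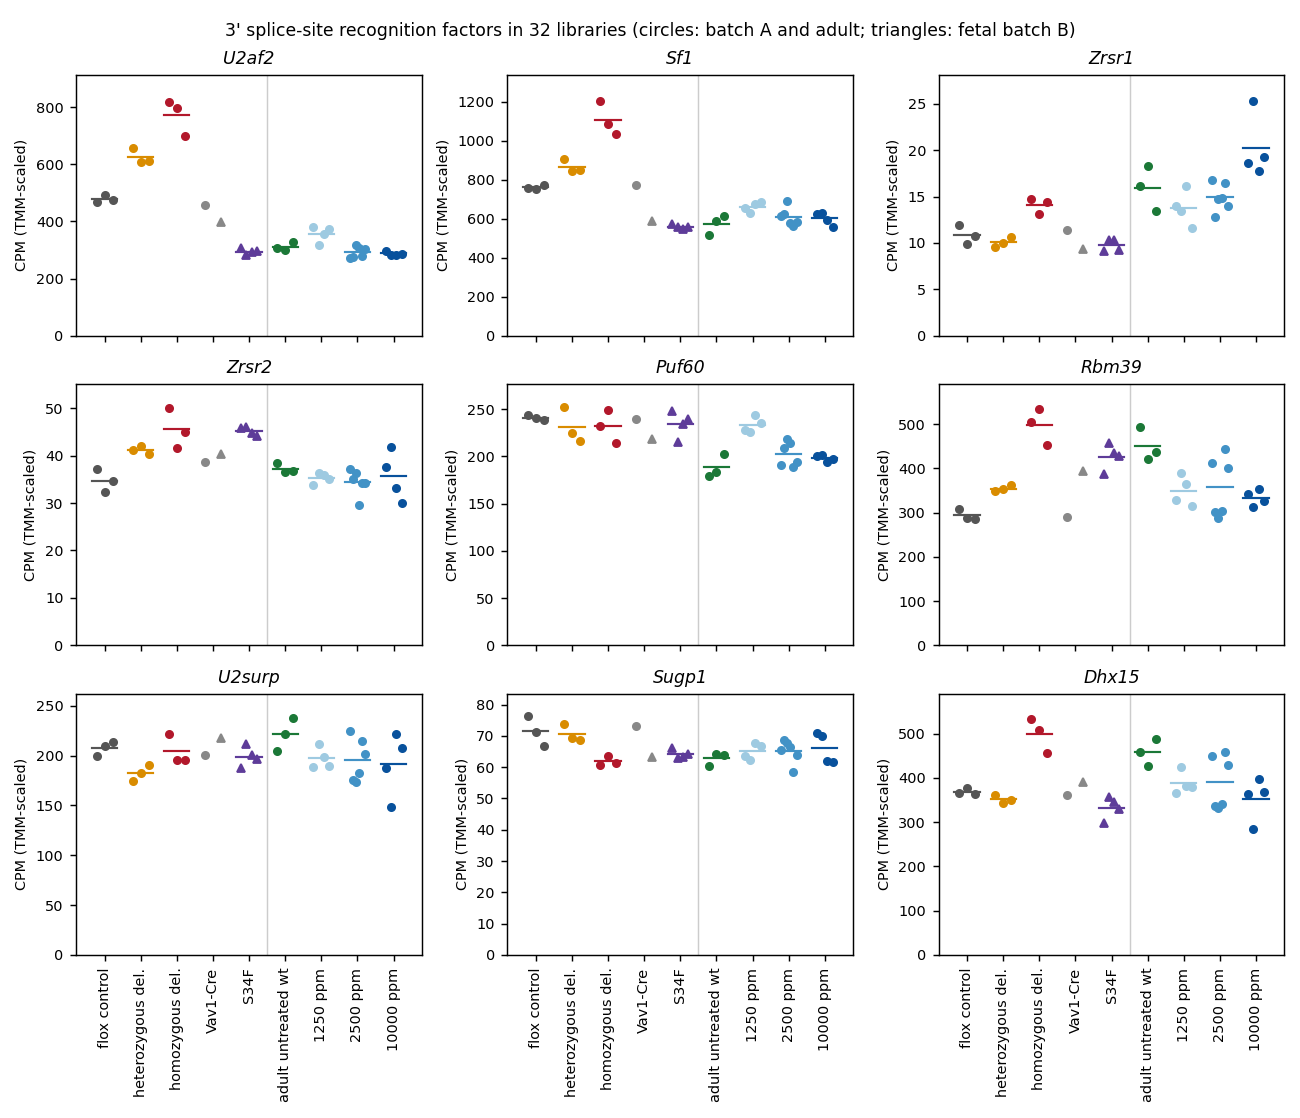
CPM after TMM scaling (y axes, linear from 0) of the 9 factors in the 32 libraries, by group; each point is a library, triangles are fetal batch B, and bars are group means. U2af2 and Sf1 are highest in the homozygous deletion, followed by the heterozygous deletion, and Zrsr1 is highest at 10000 ppm.

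In fetal progenitors, deletion of both U2af1 alleles went with more RNA of its heterodimer partner U2af2, of the branch-point binder Sf1, of Rbm39, which resembles U2af2, and of the helicase Dhx15. Zrsr1 and Zrsr2 rose by less, Sugp1 fell, and Puf60 and U2surp did not pass the test. Against the flox control, 6 factors rose and 1 fell (edgeR, adjusted p under 0.05); of all 12678 genes tested in this comparison, 18.5% rose, 22.4% fell and 41.0% in all passed. The median log2 fold change was 0.36 over the 9 factors and -0.02 over all genes. The 3 libraries of the homozygous deletion did not overlap those of the flox control for 7 factors, as was the case for 49.4% of all genes.

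U2af2 stood at 468, 492 and 476 CPM in the flox control, at 658, 609 and 613 in the heterozygous deletion, and at 819, 797 and 699 in the homozygous deletion. The 3 groups did not overlap, and the Vav1-Cre library of batch A, at 459 CPM, lay below all 9. The rise over the flox control was 0.66 ± 0.06 on the log2 scale (SE, n = 3 against 3, adjusted p = 3.29e-05), and over the heterozygous deletion 0.25 ± 0.06 (adjusted p = 0.00717). The heterozygous deletion was 0.41 ± 0.06 above the flox control, which did not pass (edgeR adjusted p = 0.0947); over the alternative settings that p ran from 1.66e-05 (DESeq2) to 0.652, and without flox control replicate 3 it was 0.0149. Deletion of 1 allele thus gave a U2af2 level between the other groups in every library, with a call that depended on the setting.

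Zrsr1, the intronless relative of the small subunit, was at 11.9, 9.86 and 10.7 CPM in the flox control, at 9.62, 9.95 and 10.7 in the heterozygous deletion, and at 14.7, 13.1 and 14.4 in the homozygous deletion. The homozygous libraries lay above all others of batch A, and the other 2 groups overlapped; the Vav1-Cre library of batch A was at 11.4 CPM, among the flox control. Its log2 rise was 0.34 ± 0.11 over the flox control (SE, edgeR adjusted p = 0.0298) and 0.43 ± 0.11 over the heterozygous deletion (adjusted p = 0.0104). With the hepatocyte score as covariate the first of these was 0.06 (adjusted p = 0.907) and the other 0.29 (adjusted p = 0.133). The first call was also lost without flox control replicate 4 or 5 and without homozygous deletion replicate 2 or 4, where the adjusted p was 0.119, 0.0874, 0.0687 and 0.0739.

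Zrsr2 was at 37.2, 32.3 and 34.6 CPM in the flox control, at 41.1, 42.1 and 40.3 in the heterozygous deletion, and at 49.99, 41.6 and 45.1 in the homozygous deletion. Both deletion groups lay above the flox control in every library and overlapped each other; the Vav1-Cre library of batch A was at 38.6 CPM, also above all of the flox control. Zrsr2 rose by 0.36 ± 0.08 in the homozygous deletion (SE, log2, edgeR adjusted p = 0.00527), while its value of 0.26 ± 0.08 in the heterozygous deletion did not pass (adjusted p = 0.384). The homozygous and heterozygous deletions differed by 0.10 (95% interval -0.06 to 0.25). With the hepatocyte score as covariate, the value against the flox control was 0.25 (adjusted p = 0.402).

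Against the flox control, the small-subunit relatives did not gain on U2af2, whose rise was larger than theirs. Counts of Zrsr2 were 7.27% ± 0.69 (SD, n = 3) of those of U2af2 in the flox control, 6.58% ± 0.33 in the heterozygous deletion and 5.92% ± 0.63 in the homozygous deletion. Counts of Zrsr1 were 2.27% ± 0.28, 1.61% ± 0.14 and 1.83% ± 0.21 of those of U2af2 in the same order. A ratio within a library does not depend on the scaling between libraries; it was not tested. Every library of the homozygous deletion lay below every library of the flox control for Zrsr2 per U2af2, at 5.22% to 6.44% against 6.57% to 7.95%. For Zrsr1 per U2af2 the homozygous deletion (1.64% to 2.06%) overlapped both the flox control (2.00% to 2.55%) and the heterozygous deletion (1.46% to 1.745%). From the heterozygous to the homozygous deletion, Zrsr1 rose by more than U2af2 (log2 0.43 against 0.25), a difference between the genes that was not tested. Against the flox control, Sf1 did not gain on U2af2 either. Its counts were 159% ± 5.18 of those of U2af2 in the flox control, 138% ± 0.79 in the heterozygous and 144% ± 6.59 in the homozygous deletion. Every library of both deletion groups (136% to 147.7%) lay below the flox control (153% to 162.3%). The homozygous deletion (136% to 147.7%) overlapped the heterozygous deletion (137.4% to 138.9%).

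Sf1, which marks the branch point before the U2 snRNP arrives, was at 756, 753 and 773 CPM in the flox control, at 905, 844 and 851 in the heterozygous deletion, and at 1205, 1085 and 1033 in the homozygous deletion. Like those of U2af2, its groups stood in the order of alleles lost and did not overlap, and the Vav1-Cre library of batch A, at 770 CPM, lay among the flox control. Sf1 rose by 0.51 ± 0.06 against the flox control (SE, log2, edgeR adjusted p = 0.000136) and by 0.30 ± 0.06 against the heterozygous deletion (adjusted p = 0.00239). The heterozygous deletion and the flox control differed by 0.21 ± 0.06, which did not pass (adjusted p = 0.37).

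Rbm39, the target of degrader sulfonamides, showed the largest fold change of the 9 factors against the flox control. It was at 308, 288 and 286 CPM in the flox control, at 348, 353 and 363 in the heterozygous deletion, and at 506, 535 and 453 in the homozygous deletion; the Vav1-Cre library of batch A was at 289 CPM. Again the groups stood in order without overlap. The rise was 0.73 ± 0.06 against the flox control (SE, log2, edgeR adjusted p = 2.03e-05) and 0.44 ± 0.06 against the heterozygous deletion (adjusted p = 0.000292), while the heterozygous deletion's 0.29 ± 0.06 did not pass (adjusted p = 0.353).

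Puf60, which like Rbm39 resembles the large subunit, passed in none of the fetal comparisons. It was at 244, 240 and 239 CPM in the flox control, at 252, 225 and 216 in the heterozygous deletion and at 233, 248.9 and 214 in the homozygous deletion, with all 3 groups overlapping, and at 239.7 in the Vav1-Cre library of batch A. Its log2 difference between the homozygous deletion and the flox control was -0.09 (95% interval -0.21 to 0.04, edgeR adjusted p = 0.3). That interval does not reach the rise of Rbm39, but the difference between the genes was not tested.

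U2surp, a U2-associated SR-related protein, was at 200, 210 and 214 CPM in the flox control, at 174, 182 and 191 in the heterozygous deletion and at 222, 196 and 195 in the homozygous deletion. The heterozygous libraries lay below all others, and the homozygous deletion overlapped the flox control, as did the Vav1-Cre library of batch A at 201 CPM. No comparison of it passed; against the flox control the log2 difference was -0.17 ± 0.07 in the heterozygous (SE, edgeR adjusted p = 0.512) and -0.06 ± 0.07 in the homozygous deletion (adjusted p = 0.542).

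Sugp1, the G-patch protein that works with DHX15 at the branch site, was the 1 factor that fell. It was at 76.4, 71.3 and 66.8 CPM in the flox control, at 73.9, 69.4 and 68.7 in the heterozygous deletion and at 60.8, 63.5 and 61.4 in the homozygous deletion. The homozygous libraries lay below all of the others, while the flox control and the heterozygous deletion overlapped and the Vav1-Cre library of batch A was at 73.05 CPM. Sugp1 fell by 0.24 ± 0.06 on the log2 scale against the flox control (SE, edgeR adjusted p = 0.00903) and its log2 difference from the heterozygous deletion was -0.24 ± 0.06 (adjusted p = 0.00801). With the hepatocyte score as covariate the value against the flox control was -0.34 (adjusted p = 0.114).

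Dhx15, the helicase, was higher in the homozygous deletion than in both other groups. It was at 366, 377 and 364 CPM in the flox control, at 362, 343 and 350 in the heterozygous deletion and at 534, 509 and 457 in the homozygous deletion, and at 362.3 in the Vav1-Cre library of batch A. Its rise was 0.41 ± 0.06 against the flox control (SE, log2, edgeR adjusted p = 0.000323) and 0.46 ± 0.06 against the heterozygous deletion (adjusted p = 0.000159). The heterozygous deletion differed from the flox control by -0.05 (95% interval -0.16 to 0.06, adjusted p = 0.853). Sugp1 and its helicase partner Dhx15 thus moved in opposite directions in the homozygous deletion, each against both other groups.

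**Figure D2:**
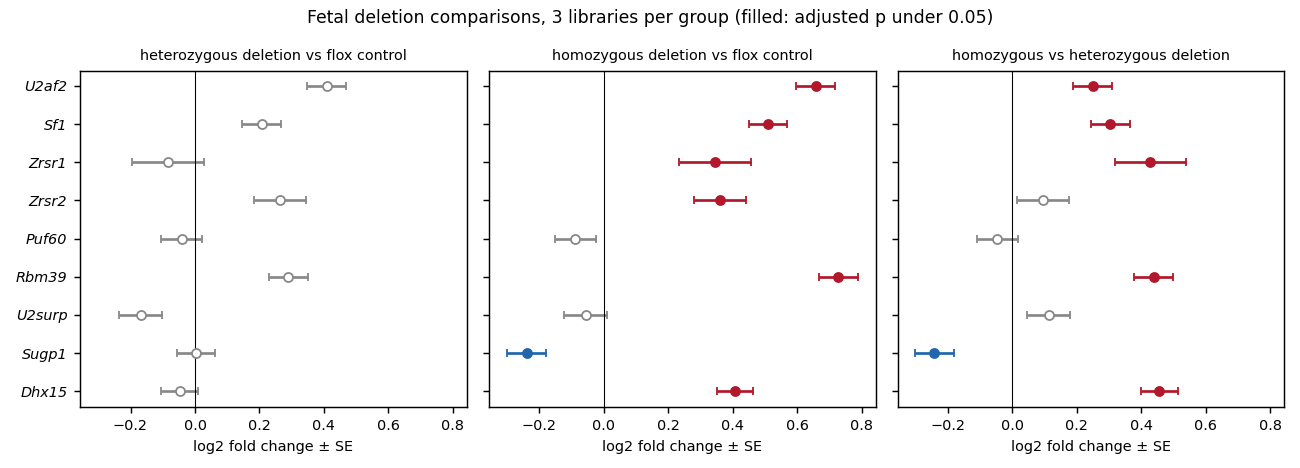
Log2 fold changes with SE (x axes) of the 9 factors in the 3 comparisons of batch A, 3 libraries per group; filled points passed an adjusted p of 0.05, red when higher and blue when lower. In the comparison of the heterozygous deletion with the flox control no point is filled, and U2af2 has the largest value there at 0.41.

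Against the heterozygous deletion, 5 factors rose in the homozygous deletion (U2af2, Zrsr1, Sf1, Rbm39 and Dhx15) and 1 fell (Sugp1), where 19.8% of all genes rose, 22.4% fell and 42.3% in all passed. Both comparisons of the homozygous deletion share its 3 libraries. Between the heterozygous deletion and the flox control, no factor passed in edgeR, where 4 genes of 12678 passed (0.0316%). At an unadjusted p under 0.05, 5 factors differed (U2af2, Zrsr2, Sf1 and Rbm39 higher, U2surp lower) beside 8.83% of all genes, and DESeq2 called 2 factors, U2af2 and Rbm39. Without flox control replicate 3, edgeR called the same 2, U2af2 (adjusted p = 0.0149) and Rbm39 (adjusted p = 0.03). The groups did not overlap for 6 factors (those 5 and Dhx15), against 16.0% of all genes.

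U2af2, Sf1, Rbm39 and Dhx15 passed in both comparisons of the homozygous deletion under every alternative that was run, the fit with the hepatocyte score included, where their log2 values against the flox control were 0.87, 0.66, 0.66 and 0.56. In that fit 4 factors passed in place of 7. Because the score separates the homozygous deletion from the other groups, neither outcome tells the score and the genotype apart.

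The sequences before the start of the factors were read from RefSeq promoters (GRCm38.p6, the 250 bases before the start), which held 7 of the 9 factors; U2af2 and Puf60 had no entry. The CCAAT box, a common promoter motif, was searched in each as CCAAT and ATTGG, its form on the other strand; it was chosen after the sequences were seen. The windows of Sf1, Rbm39 and Dhx15, which rose in both comparisons of the homozygous deletion and held a match, are given 5′ to 3′ on the gene's strand with each match in capitals.
Sf1, chr19:6363440-6363689, plus strand: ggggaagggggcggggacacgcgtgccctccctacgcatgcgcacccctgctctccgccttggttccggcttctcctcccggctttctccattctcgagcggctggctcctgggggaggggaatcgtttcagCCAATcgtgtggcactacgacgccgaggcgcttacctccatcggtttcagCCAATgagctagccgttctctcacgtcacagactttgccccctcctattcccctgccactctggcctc
Rbm39, chr2:156180239-156180488, minus strand: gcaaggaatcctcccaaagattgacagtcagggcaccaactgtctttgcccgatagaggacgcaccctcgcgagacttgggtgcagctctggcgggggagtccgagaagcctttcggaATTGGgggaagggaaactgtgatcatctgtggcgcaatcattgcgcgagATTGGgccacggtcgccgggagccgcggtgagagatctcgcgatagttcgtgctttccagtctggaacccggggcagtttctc
Dhx15, chr5:52190547-52190796, minus strand: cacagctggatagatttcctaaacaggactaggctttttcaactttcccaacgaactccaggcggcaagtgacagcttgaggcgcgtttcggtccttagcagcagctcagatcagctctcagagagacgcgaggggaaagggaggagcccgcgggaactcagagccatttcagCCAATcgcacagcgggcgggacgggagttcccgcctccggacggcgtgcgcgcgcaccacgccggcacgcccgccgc
The letters CCAAT or ATTGG stood at 2 places in the window of Sf1, at 2 in that of Rbm39 and at 1 in that of Dhx15, and at none in the windows of Zrsr1, Zrsr2, U2surp and Sugp1; RefSeq gives a further start of Rbm39 without a match. Of all 32851 promoters, 33.8% held 1 or more. Of the factors without a match, Zrsr1 also rose in both comparisons and Zrsr2 rose against the flox control. The windows shown were chosen by the rise and the match together, so their having both is not a result. These are matches of letters, and binding was not measured.

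Other genes of the pathway were described from 4 lists, 27 of whose 36 genes had a row and were tested. Between the homozygous deletion and the flox control, 10 rose and 3 fell, or 13 of 27, where 18.5% of all genes rose, 22.4% fell and 41.0% in all passed. The median log2 fold change of the 27 was 0.13, against -0.02 over all genes. Without flox control replicate 4 or replicate 5 the count was 8 in place of 13, and with the hepatocyte score as covariate it was 2.

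Of 9 U2 snRNP and SF3 proteins, which clamp the branch point once SF1 has left, 3 rose and none fell: Sf3b1 (0.36 ± 0.07, SE), Snrpb2 (0.32 ± 0.06) and Snrpa1 (0.22 ± 0.07). Of 6 UHM proteins and branch-site helicases, Smndc1, a Tudor-domain spliceosome protein, rose by 0.52 ± 0.06, and Ddx46, the helicase that remodels the U2 snRNP, had a log2 change of -0.25 ± 0.07. Of 5 polypyrimidine-tract binders, 3 rose: Ptbp1 (0.42 ± 0.06) and Ptbp3 (0.38 ± 0.06), repressors that bind the same kind of tract as U2AF, and Hnrnpa1 (0.19 ± 0.06). Of 7 G-patch partners of Dhx15, Nkrf (0.34 ± 0.10), Cmtr1 (0.20 ± 0.06) and Zgpat (0.20 ± 0.07) rose, while Gpatch2 (-0.40 ± 0.07) and Rbm5 (-0.30 ± 0.07) fell. Gpatch2 went from 42.8 ± 1.51 CPM in the flox control to 33.1 ± 1.40 in the homozygous deletion (SD, n = 3), and Rbm5 from 159 ± 6.09 to 132 ± 2.65. The G-patch partners thus went both ways, as Sugp1 and Dhx15 did.

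Against the heterozygous deletion, 9 of the 27 rose and 2 fell, so that 11 passed, a share near the 42.3% of all genes. The rises were led within their lists by Snrpb2 (0.41 ± 0.06) and Snrpa1 (0.39 ± 0.07), by Smndc1 (0.62 ± 0.06), and by Ptbp3 (0.42 ± 0.06) and Ptbp1 (0.34 ± 0.06). The falls were those of Gpatch2 (-0.55 ± 0.07) and Rbm5 (-0.43 ± 0.07). In the heterozygous deletion against the flox control none of the 27 passed in edgeR, where 0.0316% of all genes did; without flox control replicate 3 edgeR called 2, 1 each way, and DESeq2 called 1.

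**Figure D3:**
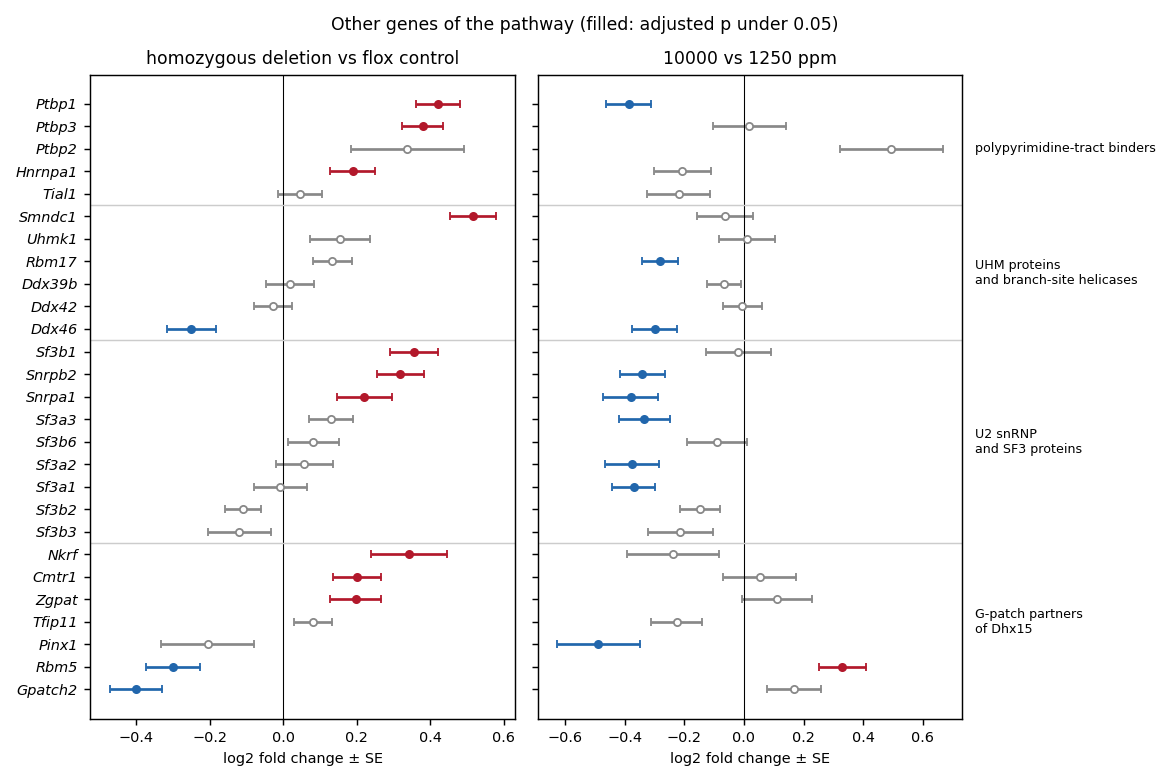
Log2 fold changes with SE (x axes) of the 27 other pathway genes for the homozygous deletion over the flox control (left) and at 10000 against 1250 ppm (right), grouped by list; filled points passed an adjusted p of 0.05. On the left 10 points are filled above 0 and 3 below, and on the right 1 above and 9 below.

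The S34F libraries had 1 control library in their batch, so no test was made and ratios to that library carry no replicate check. No factor lay past 1.5-fold in all 4 S34F libraries, a mark that 4.38% of the 11823 genes averaging 10 counts or more passed. The largest distance was that of U2af2, which lay at 306, 283, 291 and 295 CPM against 398 CPM in the Vav1-Cre library, or at 0.769, 0.711, 0.732 and 0.742 of it. Against the Vav1-Cre library of batch A, at 459 CPM, U2af2 was lower still.

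All 4 S34F libraries lay on one side of the control for 5 factors (U2af2, Zrsr2, Sf1, U2surp and Dhx15), which 58.9% of all genes did. Zrsr2 lay above the control, at 45.8, 46.0, 44.9 and 44.2 CPM against 40.3, or 1.10 to 1.14 times its level. Dhx15 lay at 0.761 to 0.916, U2surp at 0.864 to 0.975 and Sf1 at 0.926 to 0.973 of the control. Zrsr1 (0.982 to 1.10), Puf60 (0.987 to 1.14), Rbm39 (0.980 to 1.16) and Sugp1 (0.999 to 1.05) lay on both sides of it or touched it.

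With U2af2 below and Zrsr2 above the control, counts of Zrsr2 were 15.4% ± 0.62 of those of U2af2 in the S34F libraries (SD, n = 4), against 10.1% in the Vav1-Cre library of batch B and 8.41% in that of batch A. The 4 S34F libraries, at 14.97% to 16.3%, were the highest of all 32 libraries in this ratio. The gap between the Vav1-Cre libraries of the batches, at 289 and 394 CPM for Rbm39 and 770 and 588 CPM for Sf1, 11.4 and 9.35 CPM for Zrsr1 and 73.05 and 63.1 CPM for Sugp1, was wider for these 4 factors than the distance of any S34F library from its own control.

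**Figure D4:**
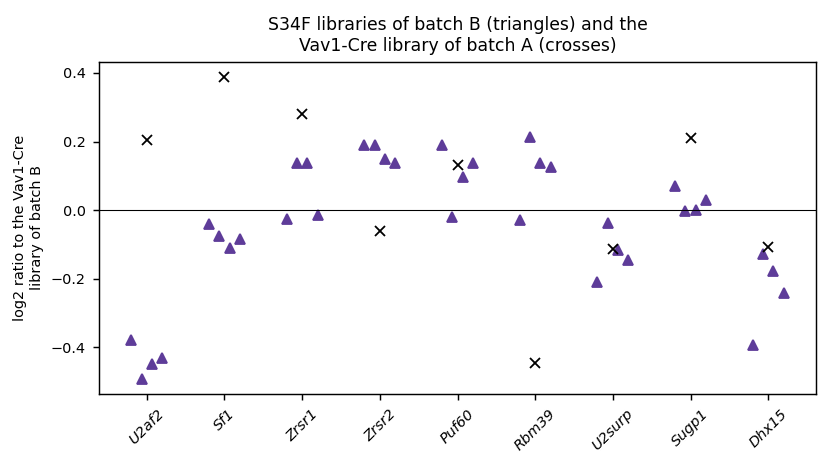
Log2 ratio of CPM (y axis) to the Vav1-Cre library of batch B for each factor; triangles are the 4 S34F libraries of batch B and crosses the Vav1-Cre library of batch A. The triangle furthest below 0 is that of U2af2 at a ratio of 0.711. The lowest triangle of Dhx15 (ratio 0.761) lies below the highest of U2af2 (ratio 0.769). The cross lies further from 0 than every triangle for Sf1, Rbm39, Zrsr1 and Sugp1.

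In the adult mice the transgene was titrated by doxycycline, and Zrsr1 was higher at 10000 ppm than at the lower doses. It was at 13.9, 13.5, 16.2 and 11.6 CPM at 1250 ppm; its lowest, median and highest values at 2500 ppm were 12.8, 14.8 and 16.8 CPM; and it was at 18.7, 25.3, 17.8 and 19.3 CPM at 10000 ppm. The untreated wild type was at 16.2, 18.3 and 13.4 CPM. All libraries at 10000 ppm lay above those of both lower doses, and those of the lower doses overlapped each other and the wild type.

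Across the 14 dosed libraries the slope of Zrsr1 was 0.20 ± 0.04 on the log2 scale per doubling of the dose (SE, edgeR adjusted p = 0.0183). Of the 9 factors it was the only 1 with a slope that passed, a share near that of all genes. Of 12849 genes 10.7% passed, 5.39% rising and 5.32% falling. Without replicate 2 at 10000 ppm, the highest library, the slope was 0.15 (adjusted p = 0.0783). Between 10000 and 1250 ppm Zrsr1 rose by 0.56 ± 0.14 (adjusted p = 0.0145), a call that was lost without that library (0.43, adjusted p = 0.0505) and without replicate 5 at 1250 ppm (0.48, adjusted p = 0.0537). Between 10000 and 2500 ppm it differed by 0.44 ± 0.13 (adjusted p = 0.297). Between 2500 and 1250 ppm it differed by 0.11, which did not pass (edgeR adjusted p = 0.656).

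U2af2 went the other way from 1250 ppm. It was at 380, 316, 356 and 375 CPM at 1250 ppm; its lowest, median and highest values at 2500 ppm were 272, 292 and 317 CPM; and it was at 297, 284, 283 and 287 CPM at 10000 ppm. The wild type was at 306, 299 and 329 CPM. The libraries at 10000 ppm lay below all of those at 1250 ppm and below all of the wild type. U2af2 fell by 0.31 ± 0.07 from 1250 to 10000 ppm (SE, log2, edgeR adjusted p = 0.00935), a call that was lost in a fit of only the compared groups (adjusted p = 0.052). Its log2 difference from 1250 to 2500 ppm was -0.29 ± 0.06 (adjusted p = 0.0443), though there the groups overlapped. The call between 2500 and 1250 ppm was lost without replicate 1, 4 or 5 at 1250 ppm or replicate 1, 2, 5 or 6 at 2500 ppm, with adjusted p from 0.0811 to 0.198. Between 10000 and 2500 ppm U2af2 differed by -0.02 (95% interval -0.14 to 0.11), so its difference lay between the lowest dose and both others, and its slope did not pass (adjusted p = 0.0961).

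Puf60 was at 229, 226, 244 and 235 CPM at 1250 ppm, above all 4 libraries at 10000 ppm (200, 201, 194 and 198), all 6 at 2500 ppm (188 to 218) and the wild type (179, 183 and 203). It was the 1 factor of 9 that passed against the wild type at 1250 ppm, with a rise of 0.31 ± 0.07 (SE, log2, edgeR adjusted p = 0.0144). That share is near that of all genes, of which 11.4% of 13338 passed and 6.76% rose. The call of Puf60 was lost without wild-type replicate 1 (adjusted p = 0.0804) or 2 (adjusted p = 0.075). U2af2, Rbm39 and Sf1 did not pass there, with edgeR adjusted p of 0.0891, 0.0896 and 0.103. Marker genes of other cells also stood apart between these groups: the macrophage genes summed to 347 to 449 CPM in the wild type and 141 to 186 at 1250 ppm, the neutrophil genes to 256 to 2110 and 151 to 185, the B cell genes to 18.4 to 25.4 and 38.2 to 50.6, and the late erythroid genes to 0.786 to 1.86 and 2.74 to 36.6. Their part in the difference of Puf60 was not tested. At 10000 ppm it was lower than at 1250 ppm, with a log2 difference of -0.23 ± 0.06 (adjusted p = 0.0187), which was lost without replicate 3 at 10000 ppm or replicate 3, 4 or 5 at 1250 ppm (adjusted p from 0.0528 to 0.119), with no filter (adjusted p = 0.0979) and with only the compared groups (adjusted p = 0.0649). Between 2500 and 1250 ppm Puf60 did not pass, but it did without replicate 3 (adjusted p = 0.048) or replicate 4 (adjusted p = 0.0326) at 2500 ppm.

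In all, 3 factors passed between 10000 and 1250 ppm (Zrsr1 higher, U2af2 and Puf60 lower) where 18.1% of all genes did, 7.53% higher and 10.6% lower. Between 2500 and 1250 ppm 1 passed (U2af2, lower), where 1.91% of all genes did and 1.36% were lower. No factor passed between 10000 and 2500 ppm, where edgeR called 0 of 13338 genes (0%); at an unadjusted p under 0.05, 1 factor (Zrsr1) and 10.8% of genes differed, and DESeq2 called no factor. These comparisons share their dose groups, so their values are not independent of each other.

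**Figure D5:**
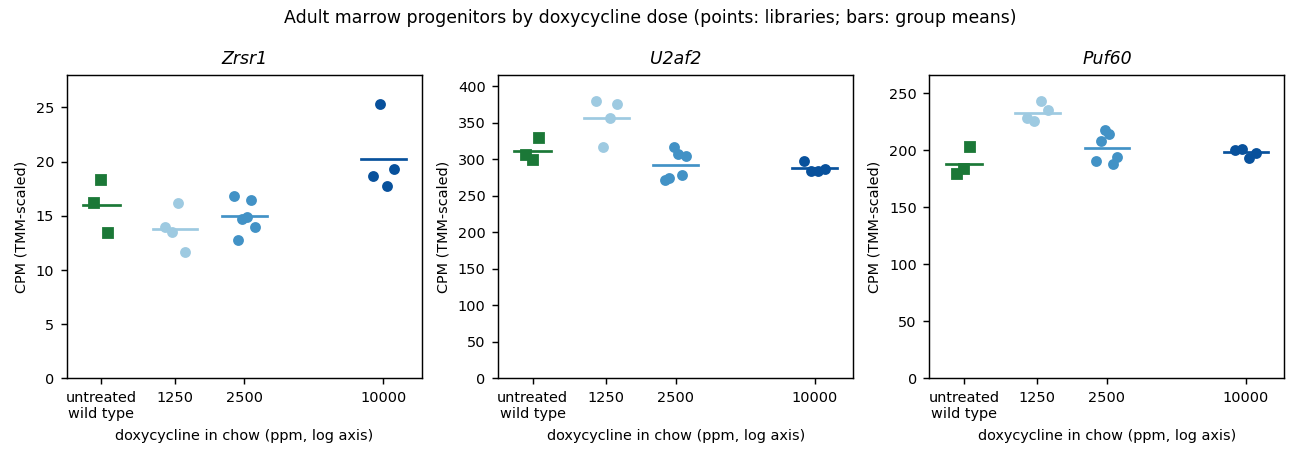
CPM after TMM scaling (y axes, linear from 0) of Zrsr1, U2af2 and Puf60 by doxycycline in chow (x axes, log scale; untreated wild type at the left); points are libraries and bars are group means. The 4 libraries at 10000 ppm lie above the other dosed libraries for Zrsr1, and below the 4 at 1250 ppm for U2af2 and Puf60.

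Against the untreated wild type no factor passed in edgeR at 10000 ppm, where 1.27% of genes did, or at 2500 ppm, where 0.487% did. At an unadjusted p under 0.05 there were 3 factors at 10000 ppm (Zrsr1, Rbm39 and Dhx15) beside 22.3% of genes and 1 at 2500 ppm (Rbm39) beside 15.2%, and DESeq2 called none in either. Rbm39 was at 494, 421 and 437 CPM in the wild type and at 313 to 353 CPM at 10000 ppm, 288 to 445 at 2500 ppm and 315 to 390 at 1250 ppm. Its log2 differences from the wild type were -0.43 ± 0.14, -0.33 ± 0.13 and -0.36 ± 0.14 in that order (SE, edgeR adjusted p = 0.0964, 0.231 and 0.0896). The 3 differences share the wild-type libraries. Dhx15 was at 458, 428 and 488 CPM in the wild type and at 284 to 398 CPM at 10000 ppm, without overlap, with a difference of -0.37 ± 0.13 (adjusted p = 0.117). The macrophage genes were lower than in the wild type (347 to 449 CPM) at every dose, at 80.3 to 329 CPM at 10000 ppm, 110 to 327 at 2500 ppm and 141 to 186 at 1250 ppm, and the B cell genes were higher; their part in these differences was not tested.

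The remaining factors did not pass in any adult comparison. Zrsr2 had a median of 36.0 CPM over the 17 adult libraries (29.5 to 41.8), and its difference between 10000 and 1250 ppm was 0.02 (log2, 95% interval -0.17 to 0.20). Sf1 had a median of 614 CPM (518 to 688), Sugp1 of 64.2 (58.4 to 70.8) and U2surp of 202 (148 to 238). Set against its relative in the same library, counts of Zrsr1 were 57.1% ± 6.68 of those of Zrsr2 at 10000 ppm (SD, n = 4), 43.6% ± 5.20 at 2500 ppm (n = 6), 39.1% ± 5.15 at 1250 ppm (n = 4) and 42.8% ± 6.80 in the wild type (n = 3). As a share of U2af2 counts, Zrsr1 was 7.05% ± 1.26, 5.14% ± 0.71, 3.90% ± 0.64 and 5.16% ± 1.021 in the same order. The neutrophil genes summed to 101 to 5460 CPM at 10000 ppm and 151 to 185 CPM at 1250 ppm, and the late erythroid genes to 12.5 to 709 and 2.74 to 36.6 CPM; their part in these differences was not tested.

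Of the 27 other pathway genes, 1 rose and 9 fell between 1250 and 10000 ppm, where 7.53% of all genes rose, 10.6% fell and 18.1% in all passed. The median was -0.21, against 0.02 over all genes. The falls took in 5 of 9 U2 snRNP and SF3 proteins, among them Snrpa1 (-0.38 ± 0.09, SE) and Sf3a2 (-0.38 ± 0.09), then Ddx46 (-0.30 ± 0.07), Rbm17 (-0.28 ± 0.06), Ptbp1 (-0.39 ± 0.08) and Pinx1 (-0.49 ± 0.14). The rise was that of Rbm5 (0.33 ± 0.08), a splicing regulator of apoptosis genes such as Fas. Over leaving out each library in turn the count ran from 7 to 12. Sf3a2 was at 191 CPM on average at 1250 ppm and 147 at 10000 ppm, and Ptbp1 at 1105 and 843.

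Along the dose, 1 rose (Rbm5, 0.11 ± 0.03 per doubling) and 4 fell, Snrpb2 (-0.10 ± 0.03), Sf3a1 (-0.10 ± 0.03), Rbm17 (-0.08 ± 0.02) and Ptbp1 (-0.11 ± 0.03), where 10.7% of all genes passed. Without replicate 1 or 2 at 10000 ppm, or any library at 1250 ppm, none of the 27 passed. Without replicate 3 or 4 at 10000 ppm the count was 8 and 10, without replicate 1 at 2500 ppm it was 8, and without replicate 3, 4 or 6 there it was 3; DESeq2 called 10. At 1250 ppm against the wild type 7 rose, led by Sf3a2 (0.47 ± 0.10) and Pinx1 (0.54 ± 0.15), and 2 fell, Ptbp2 (-0.72 ± 0.18) and Rbm5 (-0.35 ± 0.08), where 11.4% of all genes passed. Without wild-type replicate 1 or replicate 2 that count of 9 was 0, and without replicate 1, 4 or 5 at 1250 ppm it was 3, 4 and 2. Between 2500 and 1250 ppm only Sf3a1 passed (-0.30 ± 0.06), where 1.91% of all genes did, a call that was lost without replicate 1, 4 or 5 at 1250 ppm and without replicate 1, 2, 5 or 6 at 2500 ppm. Without replicate 3 or 4 at 2500 ppm 3 and 7 of the 27 passed, and DESeq2 called 7. Against the wild type none of the 27 passed in edgeR at 10000 or 2500 ppm, where DESeq2 called 4 and 2, all lower, and without replicate 3 at 10000 ppm or replicate 1 at 2500 ppm edgeR called 3 and 1.

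Over all 9 groups, the mean level of U2af2 spanned 2.68-fold, the widest of the 9 factors, from 772 ± 63.8 CPM in the homozygous deletion (SD, n = 3) through 627 ± 27.6 and 479 ± 12.6 in the heterozygous deletion and the flox control to 288 ± 6.52 at 10000 ppm (n = 4). The first 3 groups did not overlap their neighbours; from 1250 ppm (357 ± 28.8) down through the wild type (311 ± 15.6), S34F (294 ± 9.61) and 2500 ppm (292 ± 19.4) to 10000 ppm each neighbour overlapped the next. Sf1 spanned 1.99-fold, from 1108 ± 88.0 CPM in the homozygous deletion to 558 ± 11.5 in the S34F libraries, and below the heterozygous deletion every neighbour overlapped. The lowest and highest groups of Zrsr1 were S34F (9.77 ± 0.63) and 10000 ppm (20.3 ± 3.404), 2.07-fold apart, with every neighbour overlapping. The low end of both genes depended on the scaling. With RLE factors in place of TMM, the lowest group of Zrsr1 was the heterozygous deletion (9.965 CPM, S34F 10.13). That of Sf1 was the adult wild type (567.7 CPM, S34F 578.1). Stage, batch, genotype and treatment differ together between fetal and adult groups, so this order is a description.

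Rbm39 spanned 1.69-fold and Dhx15 1.504-fold, both highest in the homozygous deletion and next in the untreated adult wild type. Zrsr2 (1.32-fold), Puf60 (1.28-fold), U2surp (1.21-fold) and Sugp1 (1.16-fold) spanned less. Sugp1 was lowest in the homozygous deletion (61.9 ± 1.43 CPM), next to the adult wild type (62.9 ± 2.03), which overlapped it.

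By the root mean square difference of centred log2 group means over the 9 groups, among 9274 protein-coding genes with a mean of at least 1 CPM, the patterns most like that of U2af2 were those of Tdg (0.147), Eif2s3x (0.151) and Dusp19 (0.153). Those most like Zrsr1 were Tob1 (0.051), Mindy1 (0.070) and Zeb1 (0.074), and those most like Zrsr2 were Gcfc2 (0.059), Rheb (0.061) and Sra1 (0.061). Within 0.2 of the factor lay 58 genes for U2af2, 344 for Zrsr1 and 1934 for Zrsr2, whose groups differed least.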

How the data were processed

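The deposited values were raw read counts, whole numbers for each Ensembl gene and library, which the authors had not normalized and had made from reads mapped with HISAT2 2.1.0 to GRCm38, per the labels' design text. The counting tool, the annotation release and the use of strand are not given in the sources used here. The text names DESeq2 for the authors' expression tests and warns of batch effects in the fetal samples.

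Symbols, coordinates and exon lengths came from GENCODE M21, in which 27690 of the 27728 IDs had a symbol. Fetal groups were compared in 1 fit of the 9 batch A libraries of 3 genotypes, adult groups in 1 fit of 17 libraries, and the slope on log2 dose in 1 fit of 14. Each of the 10 comparisons used edgeR 4.0.16 (filterByExpr, TMM scaling, quasi-likelihood test) with Benjamini-Hochberg adjustment over all genes tested, called at an adjusted p under 0.05; fold changes are log2. Levels per library are counts per 1000000 counts (CPM) on 1 TMM scale over all 32 libraries. In each of 46 pairs, replicates of a group differed beyond counting error.

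The alternatives were DESeq2 1.42.0, RLE factors, no filter, a mean of at least 50 counts, the replicate block, a covariate of Y-linked reads, only the compared groups, a hepatocyte score or batch covariate in the fetal fits, the rank of the dose, and leaving out each library. The fits were tested on simulated data. The factors and the lists were chosen with earlier results of these data known. All factors are named; of the other lists, up to 3 genes each way with the largest change among those called between the homozygous deletion and the flox control, and up to 2 each way in every other comparison. Splicing was not analysed here.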

Additional observations from a re-analysis of the deposited data

How the results depend on the processing

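Of 19 called results of single factors, 9 passed in every alternative run (U2af2, Sf1, Rbm39 and Dhx15 in both comparisons of the homozygous deletion, and Sugp1 in that with the heterozygous deletion), 10 were lost in 1 or more, and all 19 kept their sign. Of 71 that did not pass, 6 passed in 1 or more alternatives and 27 changed sign in 1 or more. The count of factors between the homozygous deletion and the flox control was 7, and 4 with the hepatocyte score as covariate. In the heterozygous deletion against the flox control it was 0, but 2 with DESeq2 and with no filter, and 1 at a mean of at least 50 counts and with the batch covariate. Between 2500 and 1250 ppm it was 1, but 2 with DESeq2 and with the Y-linked covariate, and 0 with no filter and with only the compared groups. With only those groups it was also 1 in place of 3 between 10000 and 1250 ppm, and 3 in place of 1 between 1250 ppm and the wild type (Puf60, and Rbm39 and Dhx15 lower). With the rank of the dose, 2 factors passed along the dose (Zrsr1 and U2af2). The cause was not tested. The Y-linked covariate could not be fitted along the dose, since every dosed library had such reads.

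Leaving out each library in turn, the count ran from 6 to 7 between the homozygous deletion and the flox control, from 0 to 2 in the heterozygous deletion against the flox control, stayed at 6 in the homozygous against the heterozygous deletion, and ran from 1 to 3 between 10000 and 1250 ppm, 0 to 2 between 2500 and 1250 ppm, and 0 to 1 both between 1250 ppm and the wild type and along the dose. It stayed at 0 at 10000 or 2500 ppm against the wild type, between 10000 and 2500 ppm, and in the S34F libraries.

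The labels do not say whether equal replicate numbers pair the libraries. Deviations from the group means correlated with r from -0.11 to 0.10 over 7 fetal pairs of equal number. Over 19 adult pairs of equal number r ran from -0.23 to 0.46, and 6 lay above 0.1. Over 87 adult pairs of unequal number r ran from -0.36 to 0.31, and 15 lay above 0.1. These values do not settle it. With the replicate number as a block, the count of factors was 5 in both comparisons of the homozygous deletion. It was 1 between 10000 and 1250 ppm (Puf60, while U2af2 had an edgeR adjusted p of 0.0554 and Zrsr1 of 0.0655). It was 0 between 2500 and 1250 ppm and 0 along the dose. These fits left out homozygous deletion replicate 2 and 2500 ppm replicate 6, whose numbers stood in no other group. The block and the lost library cannot be told apart in them.

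The lowest count of a factor in a library was 301, for Zrsr1; how far depth limits each factor was not compared.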

Other observations

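The 6 libraries at 2500 ppm stood apart in 2 sets of 3 for Rbm39, Dhx15, U2surp, Puf60 and Sugp1. This was seen in the values and carries no test, and the share of all genes that split so was not counted. Rbm39 was at 413, 445 and 401 CPM in replicates 1, 5 and 6 and at 302, 288 and 305 CPM in replicates 2, 3 and 4. Dhx15 was at 450, 459 and 428 CPM in the former and at 337, 332 and 341 CPM in the latter. U2surp was at 225, 215 and 202 CPM in the former and at 176, 174 and 183 CPM in the latter. Puf60 and Sugp1 went the other way. Puf60 was at 191, 188 and 194 CPM in the former and at 209, 218 and 214 CPM in the latter. Sugp1 was at 65.36, 58.35 and 63.98 CPM in the former and at 68.65, 67.74 and 66.42 CPM in the latter. Other pathway genes split the same libraries. Sf3b1 was at 754, 757 and 705 CPM in the former and at 597, 556 and 560 CPM in the latter. Sf3b2 was at 552, 535 and 544 CPM in the former and at 600, 609 and 585 CPM in the latter. The labels put all 6 in 1 group. U2af2 was at 272, 279 and 305 CPM in the former and at 274, 317 and 307 CPM in the latter. These overlapped, as did the sets for Zrsr1, Zrsr2 and Sf1.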
